A study of Homo sapiens with 9 samples.

Results

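The 10 genes described here are AXIN2, NKD1, NOTUM, RNF43, ZNRF3, LGR5, ASCL2, SP5, TCF7 and LEF1, which were listed by name as targets of Wnt/beta-catenin signalling and genes of the intestinal stem cell. Their levels were measured by RNA-seq in HCT116, a long established line of human colon carcinoma cells that carries mutant beta-catenin. The names were matched to gene identifiers in the gene tables, and all 10 were found among 58395 genes listed. The rule that lists them uses names and no measured value, and it was written with earlier results of these data known.

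The study examined STBD1, a glycogen-binding protein, through cells that all carried shSTBD1, a short hairpin RNA against STBD1. Stable lines made by lentiviral infection and drug selection then carried 1 of 3 constructs, with 3 libraries each. The plvx neo group had the vector alone, STBD1 WT had the wild-type protein put back, and STBD1 W203C had the same protein with a tryptophan exchanged for a cysteine. The series describes the 3 libraries of a group as biological replicates, and whether a line was 1 clone or a pool was not given in the sources used here. There were no cells without the hairpin, so the effect of the hairpin itself could not be read from these libraries.

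The names of the deposited tables and the sample labels contradict each other over which construct is STBD1 WT and which is STBD1 W203C. Labels were followed here. If the file names were right, each direction between the constructs would turn around, and the comparisons with plvx neo would change places. The summed TPM (transcript abundance scaled by transcript length and to a fixed library total) of STBD1 and the read-through gene FAM47E-STBD1 was 4.12 to 5.62 in plvx neo, 52.3 to 57.0 in STBD1 WT and 43.5 to 47.9 in STBD1 W203C, so both constructs were present and this value cannot tell them apart. Libraries held 16.9 to 23.3 M expected counts (M, mega). The epithelial markers EPCAM (179 to 226 TPM), KRT8, KRT18, KRT19, CDH1 and CDX2 were all present, KRT20 was at 0.45 to 1.28 TPM and VIL1 at 0 to 0.08 TPM. Of 8 markers of other cell types, PTPRC, CD3E, PECAM1, VWF and COL1A2 did not exceed 0.21 TPM, whereas CD68 (1.33 to 6.47 TPM), ACTA2 (3.24 to 8.28 TPM) and COL1A1 (12.6 to 21.6 TPM) were detected.

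Wnt proteins bind Frizzled and LRP receptors at the cell surface and stop a cytoplasmic destruction complex from degrading beta-catenin. Beta-catenin then enters the nucleus and activates genes together with DNA-binding proteins of the TCF/LEF family. Several of these target genes encode inhibitors of the same pathway and so form negative feedback. In the intestine the pathway maintains the stem cells of the crypt, and most colon carcinomas carry a mutation that keeps it active.

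Promoter sequences, from 250 bases before to 50 bases after a transcription start, were taken from RefSeq (GRCh38.p14) to show the DNA letters that TCF/LEF proteins are known to bind. Of the 10 genes, RNF43, SP5, TCF7 and LEF1 had an entry, with 6 promoters in all. The motif searched was CTTTGAA, with CTTTGAT as another spelling, then CTTTGTA as a further one and lastly CTTTGTT as well, on both strands, and 4829 of 35116 promoters in the table (13.8%) held at least 1 of them. SP5 and TCF7 held a match and are shown because they place that sequence close to the start of a gene described here. The SP5 stretch is chr2:170715177-170715271 on the plus strand, and its matches begin 148, 109 and 84 bases before the start. The TCF7 stretch is chr5:134123556-134123586 on the plus strand, from the second of 2 TCF7 promoters, and its match begins 50 bases before the start. Capitals mark the matches, which appear as their reverse complement where they lie on the opposite strand.
SP5: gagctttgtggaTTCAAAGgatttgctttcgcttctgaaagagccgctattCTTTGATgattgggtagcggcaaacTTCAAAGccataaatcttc
TCF7: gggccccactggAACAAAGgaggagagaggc
These matches describe the letters of the reference and not binding in these cells. The RNF43 and LEF1 promoters held none of these spellings within the window.

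The first question was which Wnt target genes these cells transcribed at all. On the TPM scale, which allows levels of different genes to be compared per length, RNF43 was the highest, with a mean of 29.2 TPM over 9 libraries and a range of 24.3 to 35.6. TCF7 (12.8 TPM, range 11.01 to 15.1) and AXIN2 (11.8 TPM, range 9.55 to 13.7) came next, and their ranges overlapped. ZNRF3 (6.45 TPM, 5.61 to 7.32) and NOTUM (5.49 TPM, 4.02 to 7.26) also overlapped, as did NKD1 (2.69 TPM, 0.86 to 3.84) and SP5 (1.45 TPM, 1.04 to 1.96). RNF43 therefore stood above every other member in all 9 libraries. The overlaps within the 3 following pairs are of ranges over all groups. Within groups, ZNRF3 lay above NOTUM in plvx neo (5.90 to 6.98 against 4.87 to 5.28 TPM) and STBD1 W203C (6.59 to 7.32 against 4.02 to 5.20). In STBD1 WT it lay below NOTUM (5.61 to 6.32 against 6.76 to 7.26). NKD1 lay above SP5 except in plvx neo replicate 2 and STBD1 W203C replicate 1. TCF7 lay above AXIN2 except in STBD1 W203C replicates 2 and 3.

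LGR5, LEF1 and ASCL2 were at or near 0. LGR5, a receptor for R-spondins and the best known marker of crypt stem cells, had 0, 0 and 1 expected counts in the plvx neo libraries, 1, 4 and 1 in STBD1 WT, and 1, 4 and 1 in STBD1 W203C. LEF1, a TCF-family factor, had 0 in all plvx neo libraries, 0, 5 and 0 in STBD1 WT, and 0, 1 and 0 in STBD1 W203C. ASCL2, a transcription factor of crypt stem cells, had 0 counts in all 9 libraries, which allows a level of up to 0.129 to 0.178 CPM (counts per M counts of a library; the limit is 3 counts of each library's total, counting error only). At this depth no difference between groups was detectable for any of the 3, and no fold change is given.

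The related receptor LGR4 was present at 2.99 to 3.74 TPM and LGR6 at 0.02 to 0.27 TPM. Among DNA-binding partners of beta-catenin, TCF7L2 was at 42.5 to 62.7 TPM and TCF7L1 at 5.50 to 8.24 TPM, beside TCF7 at 11.01 to 15.1 TPM and LEF1 at no more than 0.18 TPM. TCF7L2 was thus the most abundant of the 4 family members in every library, and LEF1 the least.

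Changes between groups were tested on counts. Values below are CPM, scaled between libraries by the trimmed mean of M values, which compare 1 gene across libraries. The edgeR adjusted p is that of the quasi-likelihood test of edgeR, adjusted by Benjamini-Hochberg over all genes tested, and a gene is called where it is below 0.05. Each group enters 2 of the 3 comparisons, so the comparisons are not independent of each other. The 7 genes other than LGR5, ASCL2 and LEF1 passed the filter on low counts in each comparison. In bulk RNA, a lower level in every cell cannot be told apart from fewer cells that express a gene. Every tested gene overlaps another annotated gene on the same or the opposite strand, and because strand use in counting was not given in the sources used here, some reads may belong to a neighbour.

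The cell type markers also differed between groups. The 8 markers of other cell types summed to 20.1 to 22.2 TPM in plvx neo, 27.2 to 34.0 TPM in STBD1 WT and 19.1 to 24.6 TPM in STBD1 W203C. CD68, ACTA2 and COL1A1 were the only 3 of these 8 tested in STBD1 WT vs plvx neo. All 3 were called higher, at log2 fold changes of 1.01, 0.81 and 0.48, beside 13.9% higher over all genes. Between the constructs 4 were tested. The same 3 were called lower in STBD1 W203C, at -1.48, -0.58 and -0.49, beside 13.4% lower over all genes. In STBD1 W203C vs plvx neo 3 were tested and 0 called, beside 5.70% of all genes. PTPRC, CD3E, PECAM1, VWF and COL1A2 did not exceed 0.21 TPM. The 8 epithelial markers summed to 3799 to 3898 TPM in plvx neo, 3395 to 3528 TPM in STBD1 WT and 3177 to 3438 TPM in STBD1 W203C. Of 7 epithelial markers tested, KRT19 (0.43) and CDH1 (0.27) were higher and KRT8 (-0.43), KRT18 (-0.44) and EPCAM (-0.11) lower on the log2 scale in STBD1 WT vs plvx neo. Between the constructs KRT19 (-0.40) and CDH1 (-0.27) were lower and EPCAM (0.14) higher in STBD1 W203C, and against plvx neo KRT8 (-0.41) and KRT18 (-0.44) were lower there. The same 7 were tested in each comparison. Over all genes, 13.9% were higher and 13.9% lower in the first comparison, 14.5% and 13.4% between the constructs, and 3.03% and 2.67% in the last. The part of these markers in the results below was not tested.

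**Figure D1:**
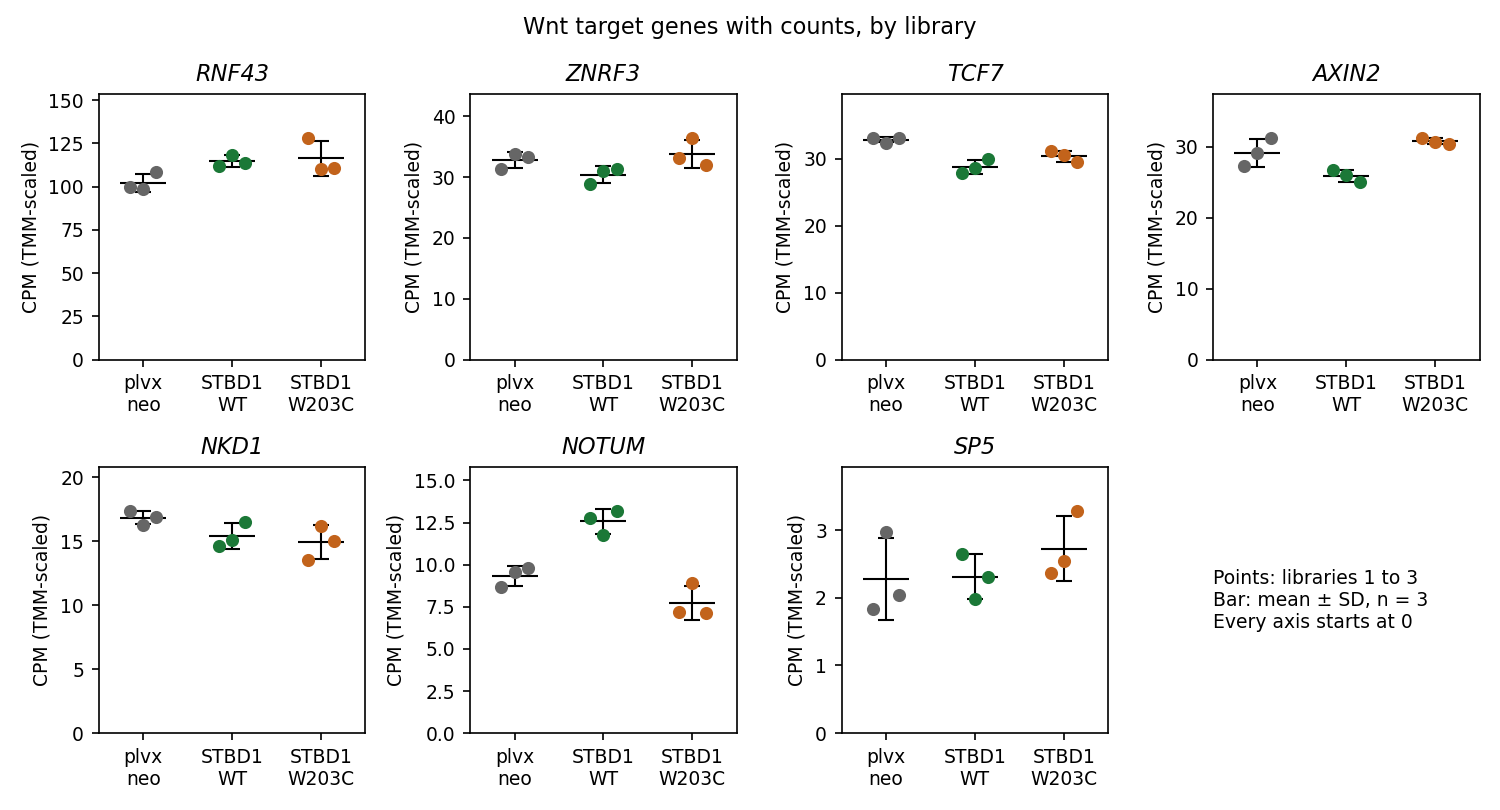
CPM of the 7 tested Wnt target genes in each of the 9 libraries, with 1 point per library and bars for the group mean and SD (n = 3). NOTUM is highest in the STBD1 WT libraries (11.8 to 13.2 CPM), AXIN2 is lowest there (25.1 to 26.7 CPM), and each axis starts at 0.

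STBD1 WT vs plvx neo asks what putting back the wild-type protein does in the knocked-down cells. NOTUM and RNF43 were higher and TCF7 was lower in STBD1 WT, by no more than 1.35-fold, and AXIN2, NKD1, ZNRF3 and SP5 were not called. These 3 called genes of 7 tested stand beside 27.8% of all 15289 genes tested, with 13.9% of all genes higher and 13.9% lower. With the GC and length offset the split of 2 higher and 1 lower became 1 higher (RNF43) and 3 lower (AXIN2, ZNRF3 and TCF7). Of all 15289 genes, 1735 were higher and 3144 lower with that offset. The groups did not overlap in CPM for 4 of the 7 (NOTUM, RNF43, TCF7 and AXIN2), against 40.4% of all genes. The median log2 fold change was -0.10 for the 7 genes and 0.0061 for all genes, and the median absolute log2 fold change was 0.17 and 0.15.

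NOTUM encodes a secreted enzyme that removes the lipid from Wnt proteins and so inactivates them. It lies on chromosome 17 (hg38, 81952507 to 81961840, minus strand). NOTUM was at 8.67, 9.54 and 9.78 CPM in the plvx neo libraries, at 12.8, 11.8 and 13.2 CPM in STBD1 WT, and at 7.19, 8.89 and 7.11 CPM in STBD1 W203C. All STBD1 WT libraries lay above all others, while plvx neo and STBD1 W203C overlapped. CD68, ACTA2 and COL1A1 were likewise highest in STBD1 WT, and their part in the NOTUM values was not tested. NOTUM rose 1.35-fold in STBD1 WT vs plvx neo (log2 fold change 0.43, SE 0.1001, edgeR adjusted p = 0.00305). With the GC content and length of transcripts as an offset per library, this change was 0.25 and no longer called (edgeR adjusted p = 0.0580). The GC content of the longest NOTUM transcript is 65.7%, against a median of 48.7% for genes tested.

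NOTUM was 1.62-fold lower in STBD1 W203C vs STBD1 WT, with a log2 fold change of -0.70 (SE 0.113, edgeR adjusted p = 8.97e-05). This was the largest change of any member in any of the 3 comparisons, and it was called under each of the 15 alternative settings run. Against plvx neo, NOTUM in STBD1 W203C differed by -0.27 on the log2 scale (95% interval -0.53 to -0.024) and was not called (edgeR adjusted p = 0.209).

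AXIN2 encodes a scaffold of the destruction complex and is widely used as a readout of Wnt signalling. It lies on chromosome 17 (hg38, 65528563 to 65561648, minus strand). AXIN2 was at 27.3, 29.1 and 31.2 CPM in plvx neo, at 26.7, 26.0 and 25.1 CPM in STBD1 WT, and at 31.2, 30.7 and 30.4 CPM in STBD1 W203C. The STBD1 WT libraries were the 3 lowest, and the STBD1 W203C libraries lay within or just above the range of plvx neo. AXIN2 was 1.19-fold higher in STBD1 W203C vs STBD1 WT (log2 fold change 0.25, SE 0.0658, edgeR adjusted p = 0.00664), and this call too held under all 15 alternatives.

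In STBD1 WT vs plvx neo, AXIN2 differed by -0.17 on the log2 scale (SE 0.0695) and was not called (edgeR adjusted p = 0.0799). It was called without plvx neo replicate 1 (-0.21, edgeR adjusted p = 0.0424) and with the GC and length offset (-0.21, edgeR adjusted p = 0.0163). STBD1 W203C vs plvx neo gave 0.077 (95% interval -0.064 to 0.22). AXIN2 and NOTUM, which both encode feedback inhibitors, thus changed in opposite directions between the constructs.

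NKD1, the third feedback inhibitor, encodes a cytoplasmic protein that binds Dishevelled. It was at 17.3, 16.3 and 16.9 CPM in plvx neo, 14.6, 15.1 and 16.5 CPM in STBD1 WT, and 13.5, 16.2 and 15.04 CPM in STBD1 W203C. The STBD1 W203C libraries all lay below plvx neo, but the nearest pair was close to a tie (16.23 and 16.30 CPM). No comparison was called. The log2 fold changes were -0.13 (95% interval -0.30 to 0.043) in STBD1 WT vs plvx neo, -0.045 (-0.23 to 0.14) in STBD1 W203C vs STBD1 WT, and -0.18 (-0.36 to 0.0069) in STBD1 W203C vs plvx neo.

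On the TPM scale NKD1 looked different. Its TPM was 3.84, 1.58 and 3.82 in plvx neo, 2.94, 2.75 and 2.89 in STBD1 WT, and 0.86, 2.51 and 2.98 in STBD1 W203C. The low values fell on the libraries in which the deposited effective length, which RSEM averages over transcripts by their estimated use, was longest, with 10958 bases in plvx neo replicate 2 and 16858 bases in STBD1 W203C replicate 1. In the other 7 libraries the effective length was shorter than in both of these, and the lowest was 4606 bases. Between libraries the effective length of NKD1 thus varied 3.66-fold, while its CPM stayed between 13.5 and 17.3. For the other tested genes the effective length varied by no more than 1.22-fold.

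**Figure D2:**
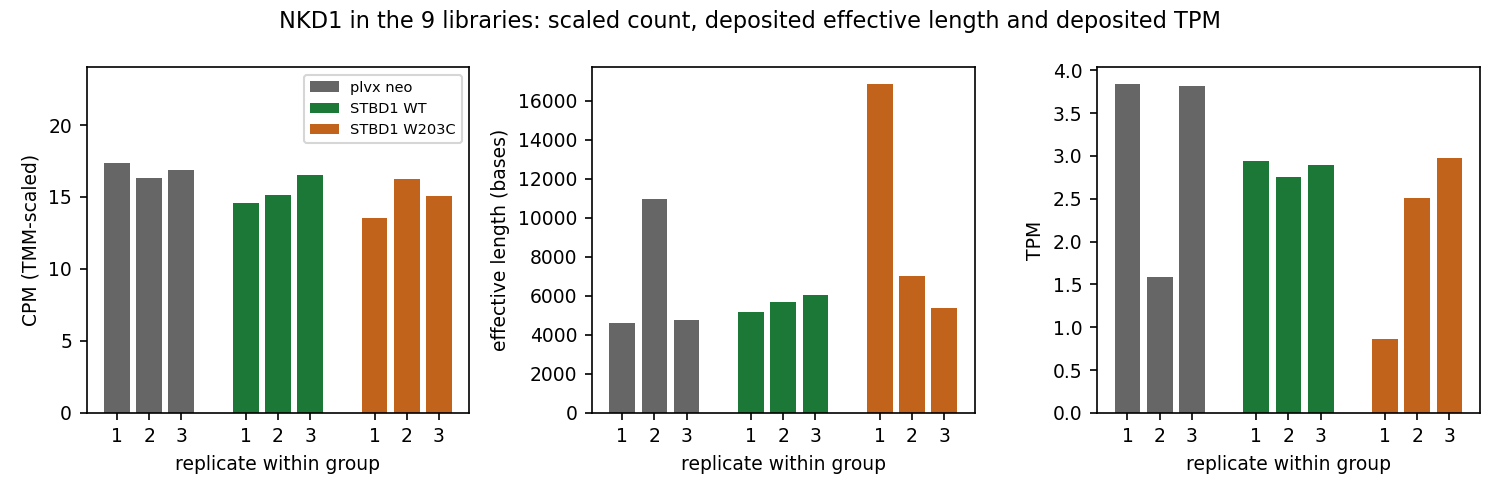
NKD1 in the 9 libraries, as CPM, deposited effective length in bases and deposited TPM, with 1 bar per library coloured by group. CPM is even (13.5 to 17.3), whereas plvx neo replicate 2 and STBD1 W203C replicate 1 have the longest effective lengths and the lowest TPM (1.58 and 0.86).

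RNF43 and ZNRF3 encode membrane ubiquitin ligases that remove Frizzled receptors from the cell surface. RNF43 lies on chromosome 17 (hg38, 58353676 to 58417595, minus strand) and ZNRF3 on chromosome 22 (hg38, 28883572 to 29057488, plus strand). RNF43 was at 99.9, 98.4 and 108.3 CPM in plvx neo, 112.2, 118.5 and 113.7 CPM in STBD1 WT, and 128.2, 110.0 and 110.8 CPM in STBD1 W203C. Both construct groups lay above plvx neo without overlap, and they overlapped each other. RNF43 was higher than in plvx neo by 0.17 on the log2 scale in STBD1 WT (SE 0.0452, edgeR adjusted p = 0.00681) and by 0.19 in STBD1 W203C (SE 0.0541, edgeR adjusted p = 0.0408). Between the constructs the log2 fold change was 0.019 (95% interval -0.086 to 0.12).

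Both RNF43 calls depended on single libraries. The call in STBD1 WT vs plvx neo was lost without STBD1 WT replicate 2 (log2 fold change 0.15, edgeR adjusted p = 0.0549). The call in STBD1 W203C vs plvx neo was lost without plvx neo replicate 1 (0.17, edgeR adjusted p = 0.110), without plvx neo replicate 2 (0.16, edgeR adjusted p = 0.121) and without STBD1 W203C replicate 1 (0.11, edgeR adjusted p = 0.330). DESeq2 gave 0.19 for the latter comparison with a Benjamini-Hochberg adjusted p of 0.0533. Both calls were also lost by limma on log2(TPM + 1), at 0.24 (limma adjusted p = 0.0799) and 0.21 (limma adjusted p = 0.445).

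ZNRF3 did not follow RNF43. It was at 31.3, 33.7 and 33.3 CPM in plvx neo, 28.9, 31.0 and 31.3 CPM in STBD1 WT, and 33.1, 36.4 and 32.0 CPM in STBD1 W203C. STBD1 WT did not overlap STBD1 W203C and overlapped plvx neo. The log2 fold changes were -0.10 (95% interval -0.24 to 0.030) in STBD1 WT vs plvx neo, 0.15 (0.011 to 0.29) in STBD1 W203C vs STBD1 WT and 0.043 (-0.096 to 0.18) in STBD1 W203C vs plvx neo, and none was called. With the GC and length offset the first was -0.17 (edgeR adjusted p = 0.0292) and the second was 0.23 (edgeR adjusted p = 0.00941), both called. That offset also moved the median of all genes in the same directions, as given below.

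TCF7 encodes a TCF-family factor that binds DNA with beta-catenin, and lies on chromosome 5 (hg38, 134114681 to 134151865, plus strand). It was at 33.2, 32.4 and 33.1 CPM in plvx neo, 27.9, 28.7 and 30.0 CPM in STBD1 WT, and 31.1, 30.5 and 29.5 CPM in STBD1 W203C. Both construct groups lay below plvx neo and overlapped each other. TCF7 was 1.14-fold lower in STBD1 WT vs plvx neo (log2 fold change -0.19, SE 0.0625, edgeR adjusted p = 0.0319). The other comparisons gave 0.077 (95% interval -0.059 to 0.21) between the constructs and -0.11 (-0.24 to 0.018) in STBD1 W203C vs plvx neo, neither of them called.

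Leaving out 1 library at a time ended the TCF7 call in 4 of 6 cases. Its edgeR adjusted p was 0.0789 without plvx neo replicate 1, 0.0801 without plvx neo replicate 3, 0.104 without STBD1 WT replicate 1 and 0.0899 without STBD1 WT replicate 2, with log2 fold changes of -0.18, -0.18, -0.16 and -0.18. It was also not called by DESeq2 (log2 fold change -0.19, Benjamini-Hochberg adjusted p = 0.101).

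SP5 encodes a zinc finger factor that is a direct target of beta-catenin, and lies on chromosome 2 (hg38, 170715337 to 170718078, plus strand), just downstream of the matches printed above. It was at 1.83, 2.97 and 2.04 CPM in plvx neo, 2.64, 1.98 and 2.31 CPM in STBD1 WT, and 2.36, 2.54 and 3.28 CPM in STBD1 W203C. All groups overlapped. With 35 to 61 counts per library, its 95% intervals were the widest of the members, at -0.51 to 0.52, -0.23 to 0.73 and -0.25 to 0.75 on the log2 scale in the 3 comparisons in the order above. No difference in SP5 was detected, and intervals this wide leave sizeable changes in either direction possible.

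**Figure D3:**
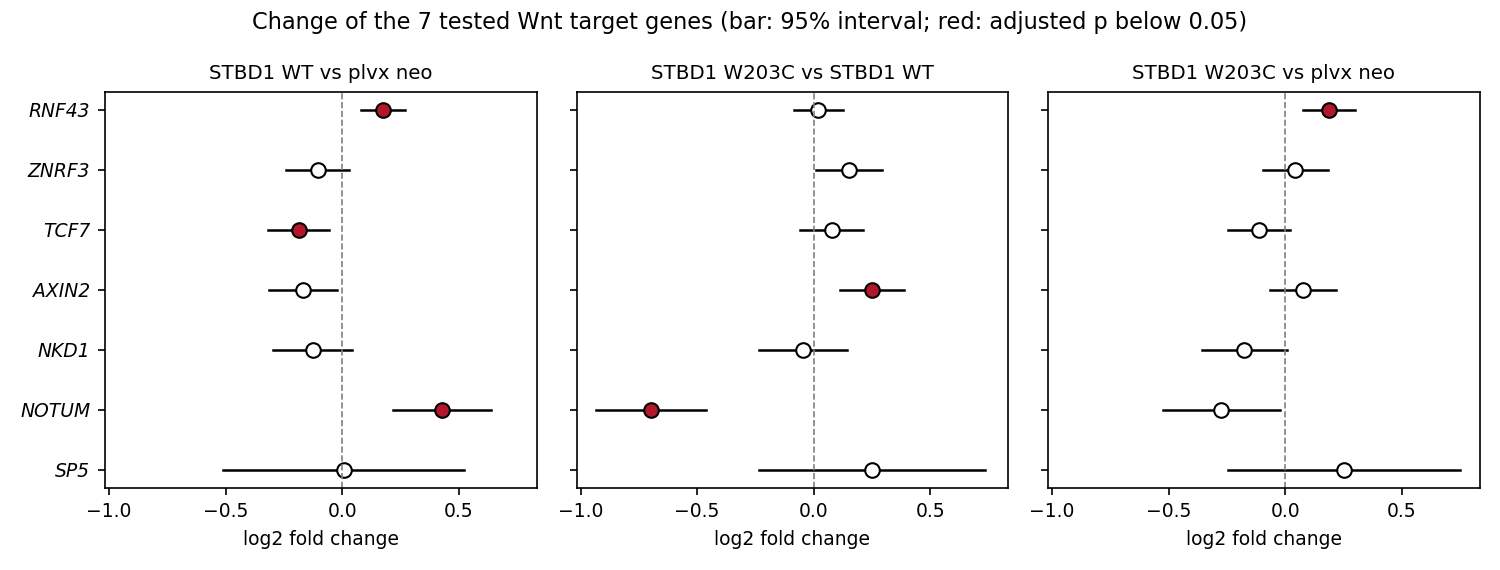
Log2 fold change of the 7 tested Wnt target genes in the 3 comparisons, with bars for the 95% interval and red points for an adjusted p below 0.05 in edgeR. NOTUM is at 0.43 and -0.70 in the first and second panels and AXIN2 at -0.17 and 0.25, and SP5 has the widest bars.

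STBD1 W203C vs STBD1 WT compares the mutant with the wild-type protein. The construct level also differed. STBD1 was lower in STBD1 W203C by -0.28 on the log2 scale (edgeR adjusted p = 0.00945) and FAM47E-STBD1 by -0.27 (edgeR adjusted p = 0.00113). The part of this level in the results was not tested. The 2 genes called of 7 tested, AXIN2 higher and NOTUM lower, stand beside 27.9% of 15052 genes tested (14.5% higher and 13.4% lower). For 3 of these 7 (AXIN2, NOTUM and ZNRF3) the libraries of the constructs did not overlap, against 41.2% of all genes. The median log2 fold change was 0.077 for the 7 genes and -0.0078 for all genes. In STBD1 W203C vs plvx neo, RNF43 alone was called, beside 5.70% of 15081 genes (3.03% higher and 2.67% lower), and the groups did not overlap for RNF43, NKD1 and TCF7, against 23.6% of all genes. The median log2 fold change there was 0.043 for the 7 genes and -0.0031 for all genes. The called Wnt target genes thus went in both directions in the comparisons with STBD1 WT, and a single gene was called in the other.

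The GC and length offset also moved the balance of calls over all genes. In STBD1 WT vs plvx neo, 2128 genes were higher and 2126 lower without it, and 1735 higher and 3144 lower with it. Between the constructs, the counts were 2178 higher and 2024 lower without it, and 3077 higher and 1544 lower with it. The median log2 fold change of all genes moved from 0.0061 to -0.029 in STBD1 WT vs plvx neo. Between the constructs it moved from -0.0078 to 0.028. The part of these shifts in calls gained or lost with the offset was not tested.

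The level of each gene in log2 CPM was centred on its mean over the 9 libraries. Its root mean square difference from RNF43, the most abundant called member, was taken over 11317 genes with at least 5 CPM on average. The nearest were MOV10 (0.0383), which encodes an RNA helicase, TMEM94 (0.0427), a membrane protein, and ZBTB45 (0.0494), a zinc finger protein. ZNRF3 ranked 5090, AXIN2 5717, TCF7 6891, NKD1 9223 and NOTUM 11091, so none of these 5 was among the genes nearest to RNF43. The measure is a description across 9 libraries and takes in differences between groups as well as within them. It measures the size of differences and not shared movement, so counting noise of genes with few counts adds to it. SP5, at 2.44 CPM on average, was below the limit and has no rank.

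A further list of 97 Wnt pathway genes, not counting the 10, was grouped by role, and 72 of them were tested in STBD1 WT vs plvx neo, 71 in STBD1 W203C vs STBD1 WT and 72 in STBD1 W203C vs plvx neo. In STBD1 WT vs plvx neo 13 were higher and 3 lower, beside 13.9% in each direction over all genes. Between the constructs 4 were higher and 15 lower, beside 14.5% and 13.4%. Against plvx neo, STBD1 W203C had 4 higher and 2 lower, beside 3.03% and 2.67%. The first and second comparisons share the STBD1 WT libraries. With the GC and length offset the splits became 8 higher and 10 lower in the first and 12 higher and 10 lower in the second. All genes moved in the same directions under that setting. They gave 1735 higher and 3144 lower of 15289 in the first, and 3077 higher and 1544 lower of 15052 in the second. The balance of directions in this list thus depended on that offset, as did that over all genes. Under every alternative without the offset, more of the list were higher than lower in the first comparison and fewer in the second. DESeq2 gave 11 higher and 0 lower in the first, beside 1480 and 1683 of all genes. In the second it gave 3 higher and 10 lower, beside 1714 and 1267.

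**Figure D4:**
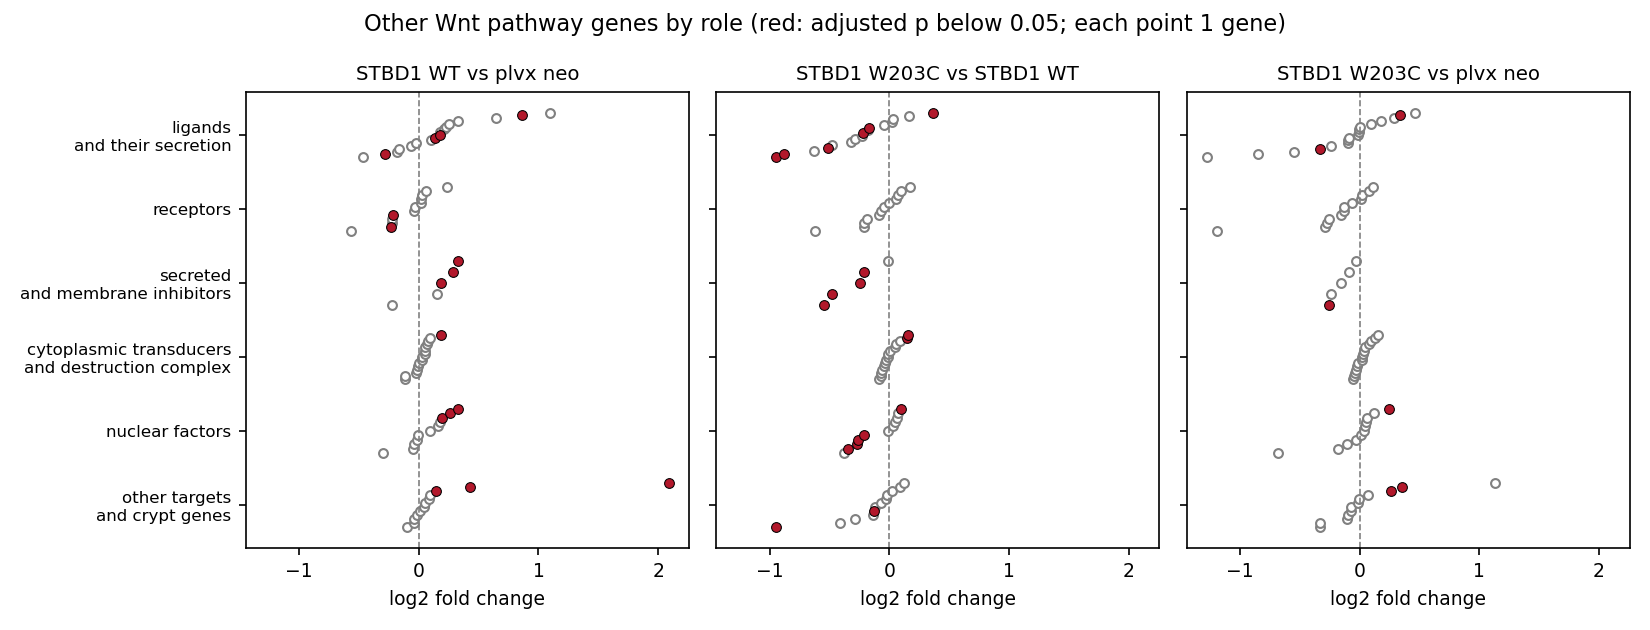
Log2 fold change of the tested genes of the further Wnt pathway list in the 3 comparisons, with 1 point per gene, rows by role and red points for an adjusted p below 0.05 in edgeR. Of 5 secreted and membrane inhibitors, 3 are red and higher in STBD1 WT vs plvx neo and 4 are red and lower in STBD1 W203C vs STBD1 WT, beside 13.9% higher and 13.4% lower over all genes, and KREMEN2 in the first panel was not called with the GC and length offset.

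Among ligands and the factors that secrete them, 3 of 17 tested were higher and 1 lower in STBD1 WT vs plvx neo, beside 13.9% in each direction over all genes. WNT9A was at 10.1, 10.7 and 10.5 CPM in plvx neo, 17.6, 19.2 and 19.9 CPM in STBD1 WT, and 12.7, 12.6 and 14.3 CPM in STBD1 W203C, and the 3 groups did not overlap. In STBD1 WT vs plvx neo its log2 fold change was 0.86 (SE 0.0861, edgeR adjusted p = 3.07e-07). It was -0.52 (SE 0.0868, edgeR adjusted p = 0.000132) in STBD1 W203C vs STBD1 WT. In STBD1 W203C vs plvx neo it was 0.34 (edgeR adjusted p = 0.0415), and that call was lost without any 1 of the 6 libraries (edgeR adjusted p 0.0695 to 0.145, log2 fold change 0.28 to 0.37). The ligand with the highest level of those named here was WNT16, at 52.5 to 66.2 TPM.

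Between the constructs 1 of 16 tested ligand genes was higher and 5 lower in STBD1 W203C, beside 14.5% higher and 13.4% lower over all genes. WNT4 (log2 fold change -0.95) and WNT6 (-0.88) were called at 0.80 and 1.16 CPM on average in STBD1 W203C, against 1.54 and 2.15 CPM in STBD1 WT. Leaving out any 1 library ended the WNT4 call, and leaving out STBD1 WT replicate 1 or 3 or STBD1 W203C replicate 1 or 3 ended that of WNT6, with edgeR adjusted p of up to 0.0989 and 0.246. WNT7B was lower in STBD1 W203C than in plvx neo (log2 fold change -0.33, edgeR adjusted p = 0.0208), and this call was lost without plvx neo replicate 3 or STBD1 W203C replicate 1 or 2 (edgeR adjusted p up to 0.118).

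DKK1, which blocks the LRP co-receptors, was the most abundant inhibitor named, at 159 to 239 TPM. It was at 257, 258 and 250.1 CPM in plvx neo, 313, 296 and 322 CPM in STBD1 WT, and 219, 215 and 206 CPM in STBD1 W203C, and the groups did not overlap. Its log2 fold change was 0.29 in STBD1 WT vs plvx neo (edgeR adjusted p = 1.25e-05), -0.54 in STBD1 W203C vs STBD1 WT (edgeR adjusted p = 3.59e-09) and -0.26 in STBD1 W203C vs plvx neo (edgeR adjusted p = 6.52e-05). The last of these calls was lost by limma on log2(TPM + 1) (log2 fold change -0.19, limma adjusted p = 0.106). DKK1 and NOTUM had the same order of group means, with STBD1 WT highest and STBD1 W203C lowest. For NOTUM, plvx neo and STBD1 W203C overlapped and their difference was not called, so their order was not resolved. KREMEN2, a co-receptor of DKK proteins, gave 0.33 in STBD1 WT vs plvx neo and -0.48 in STBD1 W203C vs STBD1 WT, both called, and the first was 0.13 and not called with the GC and length offset (edgeR adjusted p = 0.159).

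Of the 12 receptors tested, 2 were lower in STBD1 WT vs plvx neo, beside 13.9% of all genes. The edgeR quasi-likelihood test called 0 between the constructs, beside 27.9% of all genes, and 0 in STBD1 W203C vs plvx neo, beside 5.70%. These 2 comparisons had 2 and 5 receptors at an unadjusted p below 0.05, beside 5754 of 15052 and 2906 of 15081 genes. CTNNB1, the gene of beta-catenin, was at 332, 337 and 319 CPM in plvx neo, 319, 327 and 315 CPM in STBD1 WT, and 338, 346 and 343 CPM in STBD1 W203C. Its log2 fold change was -0.038 in STBD1 WT vs plvx neo, 0.097 in STBD1 W203C vs STBD1 WT (edgeR adjusted p = 0.0436) and 0.054 in STBD1 W203C vs plvx neo. The middle value was called at a size of 1.07-fold, and the call was lost in 9 of 15 alternatives, among them the fits without STBD1 WT replicate 1 or 3 and without STBD1 W203C replicate 1, 2 or 3 (edgeR adjusted p up to 0.117, log2 fold change 0.088 to 0.11).

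APC and AXIN1 encode scaffolds of the destruction complex. APC gave 0.0050, 0.15 and 0.15 in the 3 comparisons in the order above, and the second was called at an edgeR adjusted p of 0.0499 that was lost in 11 of 15 alternatives, among them every fit that left out 1 library except STBD1 WT replicate 3 (edgeR adjusted p up to 0.171). AXIN1 gave -0.025, -0.0086 and -0.039 and was not called, but with the GC and length offset the first was -0.19 and called (edgeR adjusted p = 0.0399). TCF7L2, the main TCF factor of these cells by level, exceeded its plvx neo level with either construct, by 0.19 in STBD1 WT (edgeR adjusted p = 0.00309) and 0.25 in STBD1 W203C (edgeR adjusted p = 0.00331). The latter call was lost without STBD1 W203C replicate 1 (0.18, edgeR adjusted p = 0.0564). It was also lost by limma on log2(TPM + 1) (0.39, limma adjusted p = 0.0526). TLE2, a co-repressor, was higher by 0.33 in STBD1 WT vs plvx neo and was 0.16 and not called with the GC and length offset (edgeR adjusted p = 0.0524).

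Of 12 other target and crypt genes tested, 3 were higher and 0 lower in STBD1 WT vs plvx neo, 0 higher and 2 lower in STBD1 W203C vs STBD1 WT, and 2 higher and 0 lower in STBD1 W203C vs plvx neo by edgeR, with 3, 5 and 6 at an unadjusted p below 0.05 in either direction. The shares over all genes were 13.9% higher and 13.9% lower, 14.5% and 13.4%, and 3.03% and 2.67%. At an unadjusted p below 0.05 were 5772 of 15289, 5754 of 15052 and 2906 of 15081 genes. MYC, a growth regulator at 239 to 265 TPM, gave -0.018, 0.019 and -0.0045 on the log2 scale, and CCND1, the cyclin of early cell cycle entry at 124 to 142 TPM, gave -0.042, -0.029 and -0.077, none of them called. MMP7, a secreted protease, was at 0.626, 0.243 and 0.576 CPM in plvx neo, 2.17, 2.07 and 1.91 CPM in STBD1 WT, and 1.07, 0.924 and 1.17 CPM in STBD1 W203C, and the groups did not overlap. It rose 4.25-fold in STBD1 WT vs plvx neo (log2 fold change 2.09, SE 0.354, edgeR adjusted p = 0.000167). This rests on 5 to 12 counts per library in plvx neo and 33 to 48 in STBD1 WT. MMP7 averaged 1.19 CPM over the 9 libraries, just above the naming limit of 1 CPM, and 0.48 CPM in plvx neo. Between the constructs it gave -0.95 (edgeR adjusted p = 0.0171), a call lost without STBD1 WT replicate 1 or 2 or STBD1 W203C replicate 2 (edgeR adjusted p up to 0.0612).

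SOX4, a transcription factor, and ETS2, a further one, were higher in both construct groups than in plvx neo. SOX4 was at 70.4, 74.7 and 74.2 CPM in plvx neo, 98.9, 95.1 and 101 CPM in STBD1 WT, and 95.3, 102 and 83.2 CPM in STBD1 W203C. Its log2 fold change was 0.43 in STBD1 WT (edgeR adjusted p = 6.32e-07) and 0.35 in STBD1 W203C (edgeR adjusted p = 0.000353), while ETS2 gave 0.14 (edgeR adjusted p = 0.0489) and 0.26 (edgeR adjusted p = 0.00298). Both STBD1 W203C calls were lost by limma on log2(TPM + 1) (limma adjusted p = 0.155 for SOX4 and 0.171 for ETS2). The ETS2 call in STBD1 WT was close to the threshold and was not followed under the alternatives.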

How the data were processed

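Total RNA of 9 HCT116 cultures was sequenced as Illumina read pairs. Per the labels and methods, the authors aligned reads to hg38 with STAR 2.7.1a and calculated expression abundance with RSEM 1.3.1. Read counts they made with another tool (GenomicAlignments) were not used here. The deposited tables hold an expected count per gene, which need not be whole, and the TPM and FPKM that the authors' RSEM run scaled by effective length. FPKM was not used here. Symbols matched 98.9% of 58395 identifiers. Positions are from GENCODE on hg38 and promoters from RefSeq.

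Groups and replicate numbers came from sample titles. The 10 genes and the further lists were chosen with earlier results of these data known. Expected counts were rounded, filtered with filterByExpr, normalised by TMM and tested two-sided with the quasi-likelihood test of edgeR 4.0.16 in R 4.3.3, on the 6 libraries of each comparison, with Benjamini-Hochberg adjustment over all genes tested (threshold 0.05). SE is the absolute log2 fold change over the square root of F. CPM used all 9 libraries. The biological coefficient of variation was 4.05% to 4.21%. Scripts were tested on simulated data. Replicates differed by more than sampling noise (chi-square per gene 2.12 to 3.87). P-values measure the spread between replicate libraries of 1 line per group.

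Named were the 10 genes, CTNNB1, APC, AXIN1, TCF7L2, MYC and CCND1 whatever their result, STBD1 with FAM47E-STBD1, markers, up to 6 called genes of the further list per comparison with the largest change and at least 1 CPM on average, and the 3 genes most like RNF43. LGR4, LGR6, TCF7L1 and WNT16 were named after their values were seen. Alternatives were other size factors (RLE), no filter, DESeq2 1.42.0, 1 fit of all 9 libraries, a replicate block, limma 3.58.1 on log2(TPM + 1) and log2(TPM + 0.1), a GC and length offset (mgcv 1.9.3) with and without the block, and leaving out each library.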

Additional observations from a re-analysis of the deposited data

How the results depend on the processing

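No direction of a Wnt target gene that was called turned around under any of the 15 alternatives per comparison. Of 315 values of the 7 tested genes under these alternatives, 289 stayed on their side of the threshold, 7 became called and 19 were no longer called. Same-numbered libraries did not deviate together (mean r across genes 0.0286 in STBD1 WT vs plvx neo, 0.00246 in STBD1 W203C vs STBD1 WT and 0.0106 in STBD1 W203C vs plvx neo, each pair below 0.1), so the numbers were not taken as a pairing. With the replicate block 3, 2 and 1 Wnt target genes were called in these comparisons, as without it, and 4400, 3662 and 1003 of all genes.

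In STBD1 WT vs plvx neo, limma on TPM with either pseudocount called 1 Wnt target gene, and 6 of the further list, and 1587 of all genes (pseudocount 1) or 1585 (pseudocount 0.1). Without 1 library, 1 to 3 Wnt target genes were called, the fewest without STBD1 WT replicate 2. In STBD1 W203C vs STBD1 WT, limma called 1663 or 1652 of all genes and 4 or 5 of the further list, which ranged from 10 to 18 without 1 library (the fewest without STBD1 WT replicate 1). In STBD1 W203C vs plvx neo, limma called 70 or 86 of all genes, 0 Wnt target genes (0 at an unadjusted p below 0.05) and 0 of the further list (15 or 14 unadjusted). DESeq2 called 0 Wnt target genes there (1 unadjusted, against 1 called by edgeR). Without 1 library, that comparison had 0 to 1 Wnt target genes, 3 to 6 of the further list and 459 to 818 of all genes. It had 0 Wnt target genes without plvx neo replicate 1, plvx neo replicate 2 or STBD1 W203C replicate 1, with 2, 1 and 0 at an unadjusted p below 0.05, 3 of the further list without STBD1 W203C replicate 1, and 459 of all genes without plvx neo replicate 3, 501 without STBD1 W203C replicate 1 and 543 without STBD1 W203C replicate 2. Fits without a library hold fewer samples, and the cause of the other changes was not tested. On TPM, 68.9% or 68.7% of the called genes were higher in STBD1 W203C vs STBD1 WT (51.8% by edgeR on counts), and 68.6% or 70.9% in STBD1 W203C vs plvx neo (53.2%). Depth limits LGR5, ASCL2, LEF1 and SP5.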
